A study of Mus musculus with 12 samples.

Results

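RNA of mouse oocytes that carry a gene trap in Marf1 and were injected with mRNA for D272-mutated MARF1 (GTD272) was compared with RNA of gene-trap oocytes (GT). The comparison used 8 of the 12 libraries of the series, 4 GTD272 and 4 GT, taken by the group named in the sample titles. Both groups came from Marf1-genetrap C57BL/6 mice of 3 weeks that were given 5 IU of PMSG, a hormone that stimulates follicle growth, 46 h before collection. All oocytes were fully grown and still held an intact nucleus, the germinal vesicle (GV), as they do until meiosis goes on, and each library held 80 of them. The GTD272 oocytes were cultured for 48 h after injection with milrinone, a phosphodiesterase inhibitor that keeps them at that stage. A further 4 libraries came from gene-trap oocytes that received wild type MARF1 mRNA and the same culture (GTWT), and their values are set beside the others where they bear on a result. None of the libraries is labelled as injected with a control RNA, and the labels do not say whether GT oocytes were cultured, so injection and culture cannot be told apart from the mutated protein. The labels do not tie the libraries to separate animals either, so p-values reflect no more than the spread between these libraries, which may be technical. The labels also differ on the starting material, naming lysed ovaries in one place and oocytes in another.

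MARF1 is an RNA-binding protein of oocytes with an NYN ribonuclease domain, and it is needed for oocyte meiosis and for keeping retrotransposon RNA low in female germ cells. Aspartates of an NYN domain hold the metal ions with which the enzyme cuts RNA, and D272 is the aspartate mutated here. A fully grown oocyte transcribes little and lives on stored mRNA, so that mRNA levels at this stage depend strongly on decay and on translation.

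Between 11272 and 11364 genes reached an FPKM of 1 in GTD272 libraries and between 11256 and 11277 in GT libraries. FPKM counts fragments relative to the transcript's length and to the library's mapped fragments. The relative depth read from the steps of low values was 64.6% to 82.3% of the deepest library in GTD272 and 55.4% to 100% in GT, which gives no counts and so no counting interval. All 15 oocyte-defining markers were at 1 FPKM or more in every library. Granulosa and cumulus cell markers summed to 180 to 190 FPKM in GTD272, 177 to 187 in GTWT and 207 to 220 in GT, nearly all of it Nr5a2, Esr2 and Kitl. Cyp19a1 was at 4.04 to 5.82 FPKM in GTD272, 6.47 to 6.79 in GTWT and 3.36 to 6.88 in GT. These 4 markers were at 1 FPKM or more in every library. Inhba, Has2 and Gja1 passed 1 FPKM in some libraries, up to 1.98 for Inhba in GTD272. Foxl2, Fshr, Amh and Inha stayed under 1 FPKM in every library. Of the 20 markers, 2, Tnfaip6 and Ptx3, were at 0 in all GTD272 and GT libraries. Markers of theca, stroma, endothelium and blood summed to 26.8 to 31.4 FPKM in GTD272 and 22.2 to 26.8 in GT, from Krt8 and Pecam1, with Lhcgr and Ptprc at 0 in all GTD272 and GT libraries. In bulk RNA, fewer cells of a type and less RNA per cell cannot be told apart, and the part of these markers in the results was not tested.

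Marf1 (chromosome 16, 14109166 to 14159278, GRCm38) was at 9.73, 9.10, 9.66 and 7.99 FPKM in the 4 GTD272 libraries and at 1.27, 1.71, 1.83 and 1.59 FPKM in the 4 GT libraries. The groups did not overlap. Injected mRNA and the trapped gene's own transcript are counted together in these values. The difference on the log2(FPKM + 1) scale, used for all differences here, was 1.96 (SE 0.16, limma adjusted p = 5.23e-05). Ppp2cb, a MARF1 target that encodes one of the catalytic subunits of the phosphatase PP2A, was at 99.1, 99.9, 108 and 94.8 FPKM in GTD272 and at 97.0, 108, 109 and 104 FPKM in GT. These libraries overlapped, and the difference of -0.06 (95% interval -0.27 to 0.15, adjusted p = 0.796) did not pass the test. Ppp2cb shares its listed locus with Ubxn8, which was at 6.19 ± 0.555 FPKM in GTD272 and 5.84 ± 0.416 FPKM in GT (SD, n = 4 each). The mRNA of the other catalytic subunit, Ppp2ca, was at 237 ± 4.96 FPKM in GTD272 and 262 ± 10.3 FPKM in GT, a difference of -0.14 that missed the threshold (adjusted p = 0.0631). None of the 15 measured PP2A subunits was called, and 3 of them had an unadjusted p under 0.05, beside 19.0% of all genes tested.

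Of 11687 genes tested, 165 (1.41%) were called higher and 180 (1.54%) lower in GTD272 than in GT, together 2.95%, at a Benjamini-Hochberg adjusted p under 0.05. The shifts were mostly small: the median difference of the called genes was 0.43 among rises and -0.34 among falls, against -0.006 over all genes. On the log2(FPKM + 1) scale, 7 rises and 7 falls reached a difference of 1. That is stricter than 2-fold in FPKM, which further called genes passed, such as Adcy1 with a ratio of mean FPKM of 2.05. Called genes were concentrated among abundant mRNAs. The share called over 4 equal groups of genes ordered by mean FPKM was 0.787% in the lowest, then 1.47%, 3.05% and 6.50% in the highest, where 80 genes rose and 110 fell. The shares of all genes set beside gene lists below make no allowance for level. Where none stands beside a list's count, 1.41% of all genes were called higher, 1.54% lower and 19.0% had an unadjusted p under 0.05. These lists were chosen with earlier results of these data known. The 4 GTD272 and 4 GT libraries did not overlap for 1515 genes (13%), 628 of them (5.37%) higher and 887 (7.59%) lower. Many calls lay near the threshold: 45 rises (0.385%) and 44 falls (0.376%) were called whichever of the 12 libraries was left out. Without GT 1, the first GT library, 60 rises and 50 falls were called, and without GT 3, 70 and 60. Leaving out GTD272 1 gave 78 rises and 70 falls, and leaving out GTD272 3 gave 67 and 72. Counts of rises also fell by more than 1.5 times without GT 2 (100) or GTD272 2 (108), and counts of falls without GT 2 (78), GT 4 (111) or GTD272 4 (114). For each gene described below, the libraries whose absence ended its call are named.

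**Figure D1:**
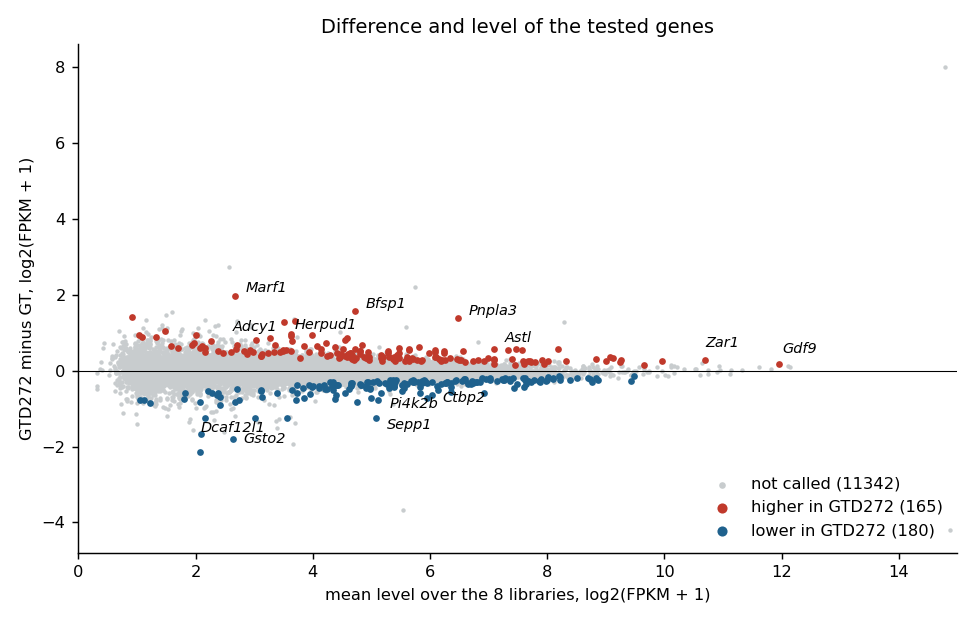
Difference between GTD272 and GT on the log2(FPKM + 1) scale (vertical) against the mean level over the 8 libraries (horizontal) for 11687 genes. Red and blue points are the 165 genes called higher and the 180 called lower in GTD272, and most of them lie within 1 unit of 0.

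Bfsp1, Pnpla3 and Adcy1 were among the 12 largest rises and kept their call without any 1 library. Bfsp1 (chromosome 2, 143826528 to 143915219), which encodes filensin, an intermediate filament protein known from the lens, was at 38.5, 34.3, 40.7 and 39.8 FPKM in GTD272 and at 11.3, 12.4, 12.9 and 12.5 FPKM in GT. The lowest GTD272 library was well above the highest GT library, and the difference was 1.56 (SE 0.11, adjusted p = 1.45e-05). Pnpla3 (chromosome 15, 84167776 to 84189521), a lipase of lipid droplets, was at 133, 128, 125 and 123 FPKM in GTD272, against 59.4, 36.6, 46.8 and 53.7 FPKM in GT, a difference of 1.38 (SE 0.13, adjusted p = 0.000162). It shares its listed locus with another gene, and reads of both cannot be told apart without strand. Adcy1 (chromosome 11, 7063433 to 7178506), an adenylyl cyclase, makes cyclic AMP, the messenger that holds oocytes at the GV stage. Adcy1 was at 16.1, 14.2, 16.1 and 14.8 FPKM in GTD272 and at 7.91, 8.42, 6.02 and 7.5 FPKM in GT, a difference of 0.95 (SE 0.13, adjusted p = 0.00201). It was the only call among the 29 measured genes of cyclic AMP and meiotic arrest, whose median difference was -0.004 and of which 8 had an unadjusted p under 0.05, beside 19.0% of all genes.

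Crym, a thyroid hormone binding protein, was at 23.1, 23.0, 19.4 and 14.5 FPKM in GTD272 and at 10.7, 9.82, 10.2 and 8.82 FPKM in GT, with a difference of 0.93 (adjusted p = 0.00649). For Draxin, a secreted axon guidance protein, the values were 16, 13.5, 16.2 and 14.6 FPKM in GTD272 and 8.32, 6.09, 6.70 and 9.50 FPKM in GT, and the difference was 0.91 (adjusted p = 0.00158). Both kept their call without any 1 library, and neither overlapped between the groups. The unnamed transcript 5730507C01Rik was at 1.23, 1.61, 1.11 and 3.08 FPKM in GTD272 and was listed at 0 in all 4 GT and all 4 GTWT libraries. Its call (adjusted p = 0.00442) held without any 1 library but was lost with a pseudocount of 0.01 in place of 1. Genes were tested if they reached an FPKM of 1 in at least 4 libraries, and this transcript did so only through GTD272. Its call is therefore no separate support for the rise.

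Apart from Herpud1, described below, the remaining rises among the 12 largest lost their call when certain single libraries were left out. Cdo1, cysteine dioxygenase, which turns cysteine toward taurine, averaged 17.5 ± 1.52 FPKM in GTD272 and 6.51 ± 1.15 FPKM in GT (SD, n = 4 each; difference 1.31, adjusted p = 0.0187). Its call was lost without GT 1, GT 2 or GTD272 1 (adjusted p = 0.0510 to 0.0559). Haus8, a subunit of the augmin complex that seeds spindle microtubules, averaged 4.27 ± 0.972 FPKM in GTD272 and 1.73 ± 0.218 FPKM in GT (difference 0.93, adjusted p = 0.0198), a call lost without GT 1, GT 2, GT 3, GTD272 1 or GTD272 4 (0.0522 to 0.0629). The immune genes Nfam1 and Il12b were near 1 FPKM. Nfam1 averaged 2.75 ± 0.579 FPKM in GTD272 and 0.820 ± 0.0551 FPKM in GT (adjusted p = 0.0232, lost without GT 1, GT 2, GT 3, GTD272 1, GTD272 3 or GTD272 4 at 0.0533 to 0.0685). Il12b averaged 1.70 ± 0.699 FPKM in GTD272 and 0.386 ± 0.142 FPKM in GT (adjusted p = 0.0428, lost without any GT library, GTD272 1, GTD272 2, GTD272 3 or GTWT 2 at 0.0530 to 0.116).

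Among the largest falls, Sepp1, Zfp711, Dcaf12l1, Tifab, Dtx3l and Prelid1 kept their call without any 1 library. Sepp1 (chromosome 15, 3270767 to 3280510) encodes selenoprotein P, which carries selenium. It was at 17.2, 21.8, 16.1 and 21.0 FPKM in GTD272 and at 54.3, 38.2, 47.2 and 46.5 FPKM in GT, a difference of -1.25 (SE 0.15, adjusted p = 0.00106). Every GTD272 library was below every GT library. Prelid1 (chromosome 13, 55322055 to 55325272), which moves phosphatidic acid between the mitochondrial membranes, was at 18.1, 19.2, 17.5 and 18.2 FPKM in GTD272 and at 38.7, 29.4, 30.4 and 35.9 FPKM in GT (difference -0.84, SE 0.10, adjusted p = 0.000909). Tifab, a relative of the TRAF-interacting protein TIFA, was at 2.72, 3.47, 1.67 and 3.18 FPKM in GTD272 and at 5.19, 5.92, 6.78 and 5.66 FPKM in GT (difference -0.89, adjusted p = 0.00869). Dtx3l, an E3 ubiquitin ligase, averaged 2.02 ± 0.287 FPKM in GTD272 and 4.40 ± 0.211 FPKM in GT (difference -0.84, adjusted p = 0.00480). Prelid1 and Dtx3l each share a listed locus with another gene and are uncertain for that reason.

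Other large falls were less certain. Eno1, the glycolytic enzyme enolase, had the largest fitted fall (-2.16, adjusted p = 0.0152), but it was listed at 0.000237, 0.000232, 2.96 and 0.000242 FPKM in GTD272 and at 4.40, 9.55, 3.17 and 5.57 FPKM in GT. Its near-identical copy Eno1b was at 26.2, 26.3, 26.2 and 25.9 FPKM in GTD272 and at 22, 17.9, 20.2 and 20.3 FPKM in GT (difference 0.37, adjusted p = 0.0205). Reads that match both copies are divided by an estimate, so neither direction is certain, and the call of Eno1 was lost with a pseudocount of 0.01. That of Eno1b was lost without GT 2, GT 3, GTD272 1 or GTD272 3 (0.0527 to 0.0588). Scimp, an adaptor protein of immune cells, was at 1.41, 0, 0.845 and 2.05 FPKM in GTD272 and at 6.92, 3.48, 7.68 and 3.65 FPKM in GT (difference -1.68, adjusted p = 0.0473), and its call was lost without any GT library, GTD272 1, GTD272 2, GTD272 3 or GTWT 2 (0.0552 to 0.128). The transcript 2900011O08Rik, in a shared locus, averaged 0.680 ± 0.418 FPKM in GTD272 and 2.0 ± 0.229 FPKM in GT (adjusted p = 0.0276, lost without any GT library, GTD272 1, GTD272 3 or GTD272 4 at 0.0533 to 0.0828).

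**Figure D2:**
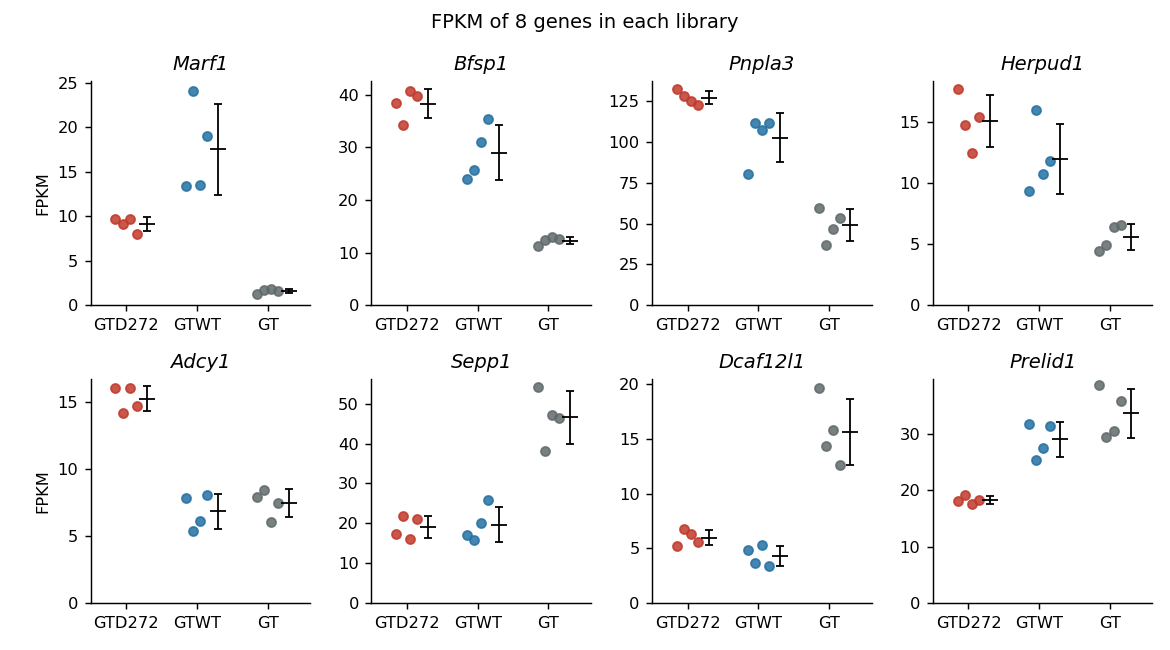
FPKM (vertical axes, from 0) of 8 genes in the 4 libraries of GTD272, GTWT and GT; points are libraries, and bars beside them give the mean and SD. For Adcy1 and Prelid1 the GTWT libraries lie near the GT libraries, while for Sepp1 and Dcaf12l1 they lie near the GTD272 libraries. For Bfsp1, Pnpla3 and Herpud1 the GTWT libraries lie above the GT libraries, most of them below the lowest GTD272 library.

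The unfolded protein response senses misfolded proteins in the endoplasmic reticulum (ER) and raises transcripts of chaperones and of the machinery that sends proteins to degradation, while the transcription factor ATF4 raises genes of amino acid supply and of glutathione breakdown. Of 26 measured genes of that response, 2 were called higher and none lower in GTD272, and 9 had an unadjusted p under 0.05, beside 19.0% of all genes. The list's median difference was 0.10, with 20 members above 0 and 6 below, against a median of -0.006 over all genes and 1.41% of all genes called higher. This shift was not particular to the list. The median was 0.09 for ribosomal proteins (56 above 0, 27 below) and 0.08 for oxidative phosphorylation (60 above, 29 below). The called members of the unfolded protein response were Herpud1, an ER membrane protein that helps degrade misfolded proteins, and Hspa5, the chief ER chaperone. Of 23 measured ATF4-related genes, 1 was called higher, Chac1, an enzyme that breaks down glutathione. The 250 bases upstream of the annotated start of these 3 genes are shown because motifs bound by the factors of these responses are known for such promoters. Capitals mark each match to the ER stress response element (CCAAT and CCACG with 9 bases of any kind between them), its second form (ATTGG and CCACG with 1 base between them) or the C/EBP-ATF response element (TGATGCAA, whose reverse complement is TTGCATCA), searched on both strands. The sequences are RefSeq's, build GRCm38.p6, plus strand: Herpud1 at chr8:94386179-94386428, Hspa5 at chr2:34771840-34772089 and Chac1 at chr2:119350992-119351241.
Herpud1: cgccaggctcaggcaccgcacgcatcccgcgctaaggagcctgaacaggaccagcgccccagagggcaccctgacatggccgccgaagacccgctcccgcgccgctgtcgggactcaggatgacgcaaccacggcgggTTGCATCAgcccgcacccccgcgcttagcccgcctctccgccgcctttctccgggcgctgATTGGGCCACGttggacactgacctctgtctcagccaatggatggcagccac
Hspa5: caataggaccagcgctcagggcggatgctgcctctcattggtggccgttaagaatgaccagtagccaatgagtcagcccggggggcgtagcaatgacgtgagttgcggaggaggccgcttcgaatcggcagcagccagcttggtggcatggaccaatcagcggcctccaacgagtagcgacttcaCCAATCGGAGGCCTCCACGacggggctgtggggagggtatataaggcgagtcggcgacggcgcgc
Chac1: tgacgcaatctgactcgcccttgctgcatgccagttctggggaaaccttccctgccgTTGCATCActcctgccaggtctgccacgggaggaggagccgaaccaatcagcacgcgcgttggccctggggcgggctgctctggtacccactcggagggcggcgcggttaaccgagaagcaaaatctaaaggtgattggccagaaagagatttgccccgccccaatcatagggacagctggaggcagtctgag

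In Herpud1 the second form of the ER stress element lay at positions -52 to -42 relative to the start and the C/EBP-ATF element at -112 to -105, without overlap. In Hspa5 the ER stress element lay at -65 to -47, and in Chac1 the C/EBP-ATF element lay at -193 to -186. At least 1 of the 3 motifs was found in 0.932% of the 32851 promoter windows of that length, with 0.113% holding the ER stress element, 0.0304% its second form and 0.791% the C/EBP-ATF element. Of the 21 measured unfolded protein response genes that had a window, 10 held a motif, and of 20 ATF4-related genes, 3 did. A match describes the letters in these windows and shows no binding.

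Herpud1 (chromosome 8, 94386429 to 94395371) was at 17.7, 14.8, 12.5 and 15.4 FPKM in GTD272 and at 4.48, 4.96, 6.45 and 6.6 FPKM in GT. The groups were far apart, with a difference of 1.29 (SE 0.16, adjusted p = 0.00133) that kept its call without any 1 library. Hspa5 was at 213, 235, 215 and 226 FPKM in GTD272 and at 185, 197, 168 and 195 FPKM in GT. The libraries did not overlap, but the difference of 0.25 (adjusted p = 0.0447) was lost without any GTD272 library, any GT library, GTWT 3 or GTWT 4 (0.0513 to 0.118). Chac1 was at 85.6, 77.9, 81.7 and 71.3 FPKM in GTD272 and at 51.3, 61.2, 48.8 and 55.8 FPKM in GT (difference 0.54, adjusted p = 0.0168), a call lost without GT 1, GT 3, GTD272 1 or GTD272 3 (0.0517 to 0.0554). Transcripts of the aminoacyl-tRNA synthetases, also known ATF4 targets, gave no call among 20 measured, of which 2 had an unadjusted p under 0.05. Iars had the smallest p of them, at 9.65 ± 1.37 FPKM in GTD272 and 6.54 ± 2.0 FPKM in GT (adjusted p = 0.136). In GTWT against GT, which shares the GT libraries, 5 genes of the unfolded protein response were called higher and 1 lower, beside 6.14% of all genes called higher and 10.5% lower in that contrast.

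The zona pellucida is the glycoprotein coat that the oocyte builds around itself. Among 13 measured zona and oocyte-secreted factors, 5 were called higher in GTD272 and none lower, beside 1.41% of all genes called higher, with a median difference of 0.15. The count was 2 without GT 3 and 3 without GT 1, GTD272 1 or GTD272 3, and the median was 0.08 without GT 1. The 4 called members with the largest differences, Astl, Kit, Zp2 and Zp3, are described here, and the remaining call was of a smaller difference. The called members Astl, Zp2 and Zp3 were in the highest of the 4 groups by mean FPKM, where 80 of 2922 genes were called higher. Astl (chromosome 2, 127338639 to 127357655) encodes ovastacin, the protease of cortical granules that cleaves ZP2 after fertilization. It was at 157, 177, 149 and 166 FPKM in GTD272 and at 110, 109, 107 and 110 FPKM in GT (difference 0.57, SE 0.07, adjusted p = 0.00132). Zp3, a zona protein studied as a sperm receptor, was at 628, 609, 662 and 575 FPKM in GTD272 and at 460, 510, 466 and 535 FPKM in GT (difference 0.33, adjusted p = 0.00801). Both calls held without any 1 library. Zp2, the zona protein that ovastacin cleaves, averaged 140 ± 7.83 FPKM in GTD272 and 111 ± 8.48 FPKM in GT (difference 0.34, adjusted p = 0.0255), a call lost without GT 1, GT 2, GT 3, GTD272 1, GTD272 3 or GTD272 4 (0.0524 to 0.0838). Zp1 was at 181 ± 8.89 FPKM in GTD272 and 146 ± 13.3 FPKM in GT and missed the threshold (adjusted p = 0.0796). Kit, the receptor for the granulosa cells' Kit ligand, averaged 23.9 ± 0.991 FPKM in GTD272 and 18.4 ± 1.19 FPKM in GT (difference 0.36, adjusted p = 0.0158, lost without GT 3 at 0.0509).

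Gdf9, the growth factor through which the oocyte acts on granulosa cells, was among the most abundant called genes. It was at 4291, 4254, 4209 and 4036 FPKM in GTD272 and at 3792, 3809, 3567 and 3776 FPKM in GT, a difference of 0.17 (adjusted p = 0.0230). This rise did not hold up: it was lost without GT 1, GT 3, GTD272 1, GTD272 2 or GTD272 3 (0.0540 to 0.0697), and quantile normalization gave a difference of -0.33 (adjusted p = 0.554). Bmp15, its partner factor, differed by -0.08 and was not called. Among 15 maternal-effect genes, whose products the embryo needs before its own genome is active, 2 were called higher and none lower, beside 1.41% of all genes called higher, with 12 members above 0. Their median difference of 0.10 was 0.06 without GTD272 1 and with quantile normalization. The called members, Zar1 and Ooep, were in the highest of the 4 groups by mean FPKM, where 80 of 2922 genes were called higher. Zar1 was at 1812, 1893, 1666 and 1940 FPKM in GTD272 and at 1494, 1523, 1371 and 1593 FPKM in GT (difference 0.29, adjusted p = 0.0144). Ooep, a protein of the subcortical maternal complex, was at 557, 571, 554 and 535 FPKM in GTD272 and at 449, 451, 486 and 484 FPKM in GT (difference 0.24, adjusted p = 0.00943). The calls of Zar1 and Ooep held without any 1 library, but both were lost without the mean-variance trend and that of Zar1 also with quantile normalization. Of the 15 oocyte-defining markers used to check the cell type, 4 were called higher (Gdf9, Zp2, Zp3 and Ooep), beside 1.41% of all genes. The 15 markers summed to 12820 to 13280 FPKM in GTD272 and 12200 to 12700 FPKM in GT.

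**Figure D3:**
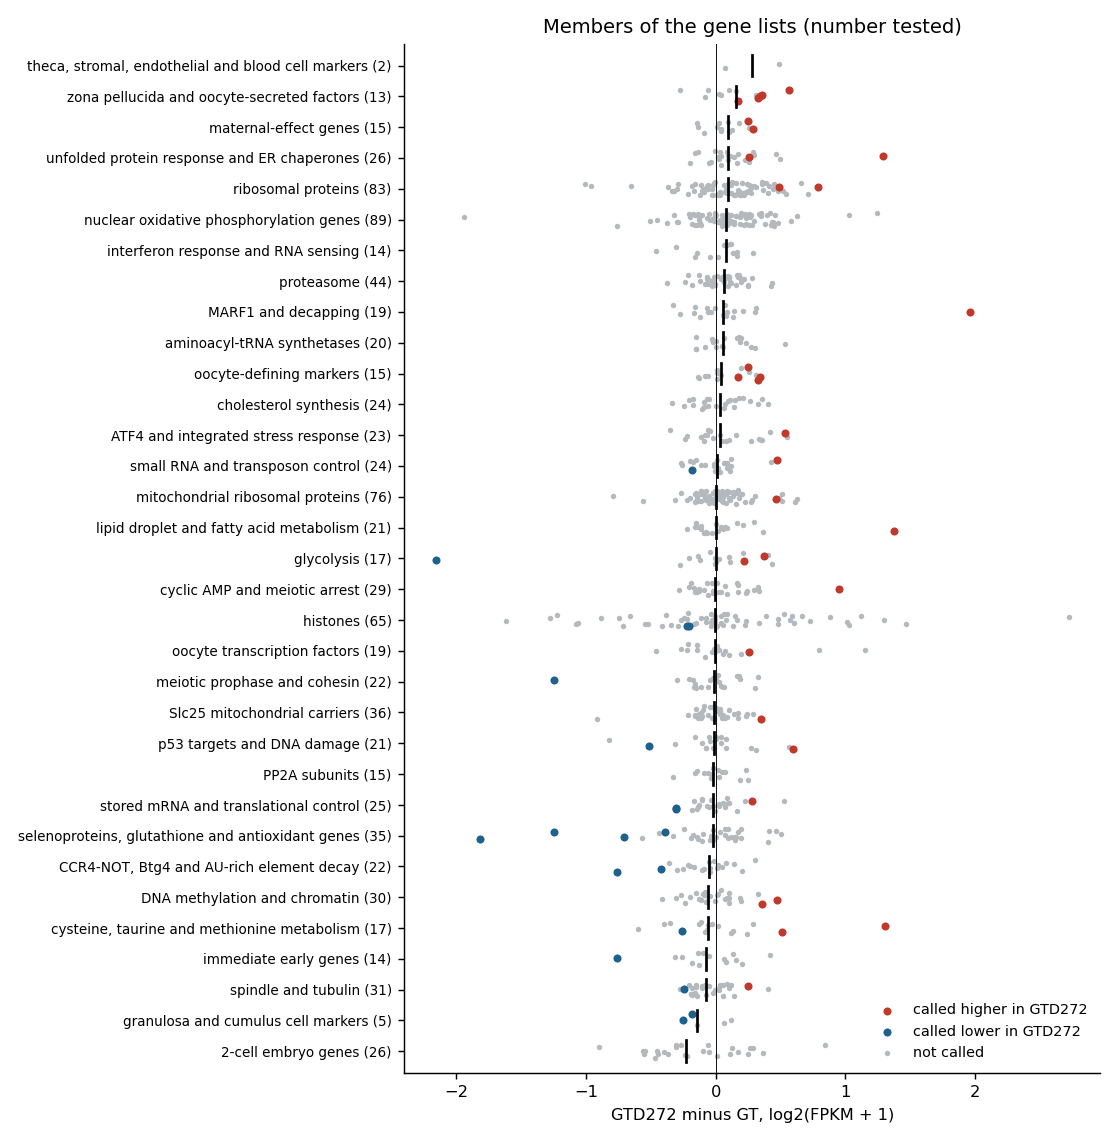
Difference between GTD272 and GT on the log2(FPKM + 1) scale (horizontal) for the measured members of 33 gene lists, sorted by their median (black bar); numbers in brackets are members tested, red and blue points are called genes. The median of zona and oocyte-secreted factors was 0.15 and that of the unfolded protein response 0.10, against -0.006 over all genes. Those of ribosomal proteins and of oxidative phosphorylation were 0.09 and 0.08.

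Deadenylation shortens the poly(A) tail of an mRNA and opens it to decay, and proteins that bind AU-rich elements recruit the CCR4-NOT deadenylase. Among 22 measured genes of this machinery, 2 were called lower in GTD272 and none higher, beside 1.54% of all genes called lower, with a median difference of -0.05. Zfp36 (chromosome 7, 28376784 to 28379228), the AU-rich element binder tristetraprolin, was at 15.7, 12.6, 17.5 and 12.6 FPKM in GTD272 and at 25.4, 26.8, 22.5 and 26.3 FPKM in GT. It was lower in every GTD272 library (difference -0.76, SE 0.13, adjusted p = 0.00869), and it was also the 1 gene called among 14 immediate early genes. Cnot7, a deadenylase subunit of CCR4-NOT, was at 156, 189, 148 and 171 FPKM in GTD272 and at 244, 218, 217 and 209 FPKM in GT (difference -0.42, adjusted p = 0.00801). Both calls held without any 1 library, but Cnot7 lies in a listed locus of 3 genes. Among 19 genes of decapping, the list that also holds Marf1, no gene other than Marf1 was called. Including Marf1, 6 members had an unadjusted p under 0.05, beside 19.0% of all genes.

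Proteins that store mRNA and time its translation moved in both directions, with 1 rise and 2 falls among 25 measured. The shares over all genes were 1.41% called higher and 1.54% called lower. Dazl, which promotes translation during maturation, was at 379, 417, 376 and 375 FPKM in GTD272 and at 498, 488, 475 and 450 FPKM in GT (difference -0.30, adjusted p = 0.0316). Its call was lost without GT 1, GT 2, GT 3, GTD272 1, GTD272 3 or GTD272 4 (0.0662 to 0.0957). Pum2, a repressor of translation, averaged 52.8 ± 0.976 FPKM in GTD272 and 65.4 ± 1.54 FPKM in GT (difference -0.30, adjusted p = 0.0193, lost without GT 1, GT 3, GTD272 1 or GTD272 3 at 0.0524 to 0.0645). Ybx2, also called MSY2, which coats stored mRNA, averaged 263 ± 11.8 FPKM in GTD272 and 217 ± 15.5 FPKM in GT (difference 0.28, adjusted p = 0.0179, lost without GT 1, GTD272 1 or GTD272 3 at 0.0524 to 0.0572). In 24 genes of small RNA and transposon control there was 1 rise and 1 fall. Tdrd9, a helicase of the piRNA pathway in a shared locus, averaged 4.21 ± 0.312 FPKM in GTD272 and 2.75 ± 0.213 FPKM in GT (adjusted p = 0.0388, lost without any GT or any GTD272 library at 0.0531 to 0.104). Tex19.1 averaged 425 ± 14.5 FPKM in GTD272 and 484 ± 18.1 FPKM in GT (difference -0.19, adjusted p = 0.0401, lost without any GT library, GTD272 1, GTD272 3 or GTD272 4 at 0.0610 to 0.114).

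Of 35 measured selenoproteins, glutathione enzymes and other antioxidant genes, 4 were called lower and none higher, beside 1.54% of all genes called lower. The count was 1 without GT 2, GT 3 or GTD272 1 and 2 without GT 1, GT 4, GTD272 3 or GTD272 4. The median difference was -0.02, and -0.07 to 0.03 whichever library was left out. Besides Sepp1, described above, these were Gsto2, Prdx6 and Gclc. Gsto2, an omega class glutathione transferase, was at 1.51, 0.433, 2.72 and 2.06 FPKM in GTD272 and at 13.1, 8.95, 9.45 and 3.26 FPKM in GT (difference -1.81, SE 0.36, adjusted p = 0.0193). The GT libraries spread widely, and the call was lost without GT 1, GT 2, GT 3 or GTD272 1 (0.0523 to 0.0657). Prdx6, a peroxiredoxin, averaged 3.06 ± 0.621 FPKM in GTD272 and 5.59 ± 0.591 FPKM in GT (difference -0.71, adjusted p = 0.0316, lost without any GT library, GTD272 1, GTD272 3 or GTD272 4 at 0.0561 to 0.0809). Gclc, which makes the first step of glutathione synthesis, averaged 23.4 ± 0.663 FPKM in GTD272 and 31.1 ± 3.39 FPKM in GT (difference -0.39, adjusted p = 0.0356, lost without GT 2, GT 3, GT 4 or any GTD272 library at 0.0663 to 0.101). Sulfur amino acid metabolism gave 2 rises and 1 fall among 17 measured, with a median of -0.06. Of all genes, 1.41% were called higher and 1.54% lower. Beside Cdo1, Ggct, which handles gamma-glutamyl products of glutathione breakdown, averaged 87.5 ± 10.1 FPKM in GTD272 and 61.6 ± 10.1 FPKM in GT (difference 0.51, adjusted p = 0.0412, lost without any GT library, GTD272 1, GTD272 2, GTD272 3 or GTWT 4 at 0.0523 to 0.108). Mat2a, which makes S-adenosylmethionine and shares a locus, averaged 94.4 ± 5.20 FPKM in GTD272 and 113 ± 5.68 FPKM in GT (difference -0.26, adjusted p = 0.0205, lost without GT 1, GT 3 or GTD272 1 at 0.0561 to 0.0680).

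Chromatin and spindle genes held a few small changes. Tubb3, a beta tubulin, was at 275, 276, 274 and 267 FPKM in GTD272 and at 322, 323, 311 and 335 FPKM in GT (difference -0.24, SE 0.04, adjusted p = 0.00442), and its call held without any 1 library but not without the mean-variance trend. The alpha tubulin Tuba1c, of a near-identical family, went the other way, averaging 209 ± 1.30 FPKM in GTD272 and 176 ± 4.88 FPKM in GT (difference 0.25, adjusted p = 0.0213, lost without GT 1, GT 2, GT 3, GTD272 1 or GTD272 3 at 0.0525 to 0.0684). No other call was made among 31 spindle and tubulin genes, of which 20 lay below 0. Dnmt1, the maintenance DNA methyltransferase in a shared locus, averaged 76.5 ± 4.82 FPKM in GTD272 and 59.7 ± 4.29 FPKM in GT (difference 0.35, adjusted p = 0.0168, lost without GT 1 or GTD272 1 at 0.0524 to 0.0545). Kmt2d, a histone H3 lysine methyltransferase, averaged 5.44 ± 0.579 FPKM in GTD272 and 3.62 ± 0.0334 FPKM in GT (difference 0.48, adjusted p = 0.0420, lost without any GT or any GTD272 library at 0.0524 to 0.0995). These were the calls among 30 genes of DNA methylation and chromatin. Among 65 histone genes, whose sequences are near-identical in part, H3f3b averaged 386 ± 6.6 FPKM in GTD272 and 445 ± 9.93 FPKM in GT (difference -0.20, adjusted p = 0.0166, lost without GT 3 or GTD272 3 at 0.0519 to 0.0552). The linker histone H1f0 averaged 88.5 ± 5.73 FPKM in GTD272 and 103 ± 2.73 FPKM in GT (difference -0.22, adjusted p = 0.0394, lost without any GT library, GTD272 1, GTD272 3, GTD272 4 or GTWT 4 at 0.05003 to 0.108).

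Meiotic prophase and cohesin genes gave 1 fall among 22, Hormad1, a protein of unsynapsed chromosome axes. It was at 2.74, 0.627, 3.20 and 0.701 FPKM in GTD272 and at 5.49, 5.47, 5.00 and 4.48 FPKM in GT (difference -1.25, adjusted p = 0.0442). The call was lost without any GT library, GTD272 2, GTD272 4 or GTWT 1 (0.0549 to 0.109). Of 21 p53 targets and DNA damage genes, Ccng1, cyclin G1, was higher, at 4.10 ± 0.493 FPKM in GTD272 and 2.38 ± 0.260 FPKM in GT (adjusted p = 0.0406), and Sesn1, a sestrin, was lower, at 6.11 ± 0.599 FPKM in GTD272 and 9.14 ± 0.571 FPKM in GT (adjusted p = 0.0396). The call of Ccng1 was lost without any GT or any GTD272 library or GTWT 4 (0.05003 to 0.0956), and that of Sesn1 without any GT library, GTD272 1, GTD272 3, GTD272 4, GTWT 1 or GTWT 4 (0.0508 to 0.0997). Among 19 oocyte transcription factors the only call was Gtf2a1l, a germ cell form of a TFIIA subunit, at 130 ± 9.42 FPKM in GTD272 and 109 ± 7.41 FPKM in GT (difference 0.25, adjusted p = 0.0447). It was lost without GT 1, GT 3, GT 4, GTD272 1, GTD272 2, GTD272 4, GTWT 1, GTWT 2 or GTWT 4 (0.0523 to 0.123). Of 17 glycolysis genes, Pkm, pyruvate kinase, rose beside the uncertain Eno1 pair, averaging 103 ± 3.65 FPKM in GTD272 and 88.1 ± 5.06 FPKM in GT (adjusted p = 0.0378, lost without GT 1, GT 2, GT 3, GTD272 1, GTD272 3 or GTD272 4 at 0.0649 to 0.101).

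Large complexes stayed near the background in calls. Their median differences were 0.08 for oxidative phosphorylation, 0.06 for the proteasome, 0.09 for ribosomal proteins and 0.005 for mitochondrial ribosomal proteins. Among 89 nuclear genes of oxidative phosphorylation and 44 of the proteasome, 10 and 3 had an unadjusted p under 0.05, beside 19.0% of all genes. None of them was called. Ndufaf1, an assembly factor of complex I, came closest, at 32.3 ± 3.49 FPKM in GTD272 and 42.1 ± 3.35 FPKM in GT (adjusted p = 0.0530). Of 83 ribosomal protein genes 2 were called higher and none lower, beside 1.41% of all genes called higher, with 56 members above 0. Rps9 averaged 28.4 ± 2.96 FPKM in GTD272 and 16.4 ± 4.49 FPKM in GT (adjusted p = 0.0396, lost without GT 1, GT 3, GT 4 or any GTD272 library at 0.0567 to 0.0975). Rpl35, in a shared locus, averaged 78.4 ± 9.82 FPKM in GTD272 and 55.5 ± 5.56 FPKM in GT (adjusted p = 0.0262, lost without GT 1, GT 3, GTD272 1, GTD272 3 or GTD272 4 at 0.0551 to 0.0857). Mrps24 was the 1 rise among 76 mitochondrial ribosomal proteins, at 44.2 ± 2.43 FPKM in GTD272 and 31.8 ± 2.12 FPKM in GT (adjusted p = 0.0179, lost without GT 1 or GT 3 at 0.0552 to 0.0597). Slc25a26, the mitochondrial carrier of S-adenosylmethionine in a locus of 3 genes, was the 1 rise among 36 carriers, at 31.8 ± 3.31 FPKM in GTD272 and 24.8 ± 2.55 FPKM in GT (adjusted p = 0.0495, lost without GT 1, GT 3, GT 4, GTD272 1, GTD272 2, GTD272 3 or any GTWT library at 0.0550 to 0.124). No gene was called among 24 cholesterol synthesis genes, 14 interferon and RNA sensing genes or 26 genes of the 2-cell embryo. An unadjusted p under 0.05 was reached by 5 of the 24, 6 of the 14 and 3 of the 26, beside 19.0% of all genes. The 2-cell genes, many in near-identical families, had a median difference of -0.23, which was 0.14 without GTD272 3 and -0.07 without GT 1, and ranged from -0.90 for Tdpoz2 (0.682 ± 0.566 FPKM in GTD272 and 2.22 ± 1.38 FPKM in GT) to 0.84 for BC061212 (4.09 ± 1.64 FPKM in GTD272 and 1.73 ± 0.437 FPKM in GT).

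Of the 20 granulosa and cumulus markers, 5 were tested, and 2 of these, the nuclear receptors Esr2 and Nr5a2, were called lower. Of all genes, 1.54% were called lower. The other 3 were not called, and of the 5 tested, 2 lay above 0 and 3 below. Esr2 was at 51.6, 56.1, 53.1 and 53.6 FPKM in GTD272 and at 68.1, 63.5, 61.8 and 62.5 FPKM in GT (difference -0.25, adjusted p = 0.0203, lost without GT 1, GT 2, GTD272 1 or GTD272 3 at 0.0510 to 0.0702). Nr5a2 averaged 109 ± 3.31 FPKM in GTD272 and 125 ± 4.04 FPKM in GT (difference -0.19, adjusted p = 0.0392, lost without any GT or any GTD272 library or GTWT 1 at 0.0505 to 0.109). Other abundant called genes moved little. Tsc22d1, a leucine zipper protein, kept its call without any 1 library, at 625, 653, 659 and 652 FPKM in GTD272 and at 535, 572, 568 and 544 FPKM in GT (difference 0.22, adjusted p = 0.00480). Its call was lost without limma's mean-variance trend (adjusted p = 0.0701). Eef1a1, a translation elongation factor, averaged 619 ± 57.7 FPKM in GTD272 and 752 ± 33.5 FPKM in GT (adjusted p = 0.0187, lost without GT 1, GT 3, GTD272 1 or GTD272 3 at 0.0517 to 0.0663). Gm13023 averaged 673 ± 40.5 FPKM in GTD272 and 558 ± 11.8 FPKM in GT (adjusted p = 0.0187, lost without GT 1, GT 2 or GTD272 3 at 0.0523 to 0.0588). Uchl1, a ubiquitin hydrolase in a shared locus, averaged 1077 ± 48.2 FPKM in GTD272 and 907 ± 64.9 FPKM in GT (adjusted p = 0.0401, lost without GT 1, GT 2, GT 3, GTD272 1, GTD272 3 or GTD272 4 at 0.0666 to 0.106). Gja4, connexin 37 of the gap junctions with granulosa cells, averaged 849 ± 26.3 FPKM in GTD272 and 765 ± 24.9 FPKM in GT (adjusted p = 0.0420, lost without GT 1, GT 2, GT 3, GTD272 1, GTD272 2, GTD272 3 or GTWT 1 at 0.0549 to 0.118). Txnip, a thioredoxin-binding protein in a shared locus, averaged 675 ± 13.5 FPKM in GTD272 and 746 ± 26.3 FPKM in GT (adjusted p = 0.0420, lost without GT 1, GT 2, GT 3, any GTD272 library, GTWT 1 or GTWT 4 at 0.0512 to 0.120).

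Further genes whose call held without any 1 library were picked here after their values were seen. Ctbp2, a transcriptional corepressor, was at 51.4, 49.3, 49.7 and 50.5 FPKM in GTD272 and at 78.5, 79.7, 75.6 and 80.5 FPKM in GT (difference -0.64, SE 0.05, adjusted p = 3.13e-05). Laptm4b, a lysosomal membrane protein, was at 217, 225, 196 and 202 FPKM in GTD272 and at 136, 149, 142 and 138 FPKM in GT (difference 0.57, SE 0.05, adjusted p = 9.94e-05). In neither gene did the groups come near each other. Hmgb2, a DNA-bending chromatin protein, averaged 96.2 ± 10.7 FPKM in GTD272 and 144 ± 6.89 FPKM in GT, and Cbx7, a Polycomb subunit, 27.6 ± 1.54 FPKM in GTD272 and 42.4 ± 2.62 FPKM in GT. Bik, a pro-apoptotic BH3-only protein, averaged 11.4 ± 0.574 FPKM in GTD272 and 5.93 ± 1.47 FPKM in GT (difference 0.86). Their adjusted p-values were 0.00248 for Hmgb2, 0.00898 for Cbx7 and 0.0126 for Bik.

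The share of genes called lower was higher on the X than on any autosome, a pattern noticed in the results and not tested. Of 402 X-linked genes tested, 17 (4.23%) were called lower and 2 higher in GTD272, while 163 of 11284 autosomal genes (1.45%) were called lower, with 0.771% to 2.57% on single autosomes. The median difference of X-linked genes was -0.10, and that of autosomal genes was -0.003. By library, the X-linked median minus the autosomal median, both relative to the GT mean, was -0.131, -0.0786, -0.108 and -0.0691 in GTD272, -0.128, -0.129, -0.0784 and -0.135 in GTWT, and 0.0132, 0.000451, 0.0173 and -0.0287 in GT. All 8 libraries of injected oocytes lay below all 4 GT libraries. They share the GT mean as their reference, which also centers the GT libraries near 0, so these are not 8 separate comparisons. Without GT 1, 6 X-linked genes (1.49%) were called lower beside 0.390% of autosomal genes, without GTD272 1, 7 (1.74%) beside 0.558%, and without GTD272 3, 7 (1.74%) beside 0.576%. The counts also fell to 8 without GT 3 and to 10 without GT 2 or GTD272 4, and the median over X-linked genes was -0.11 to -0.09 whichever library was left out.

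**Figure D4:**
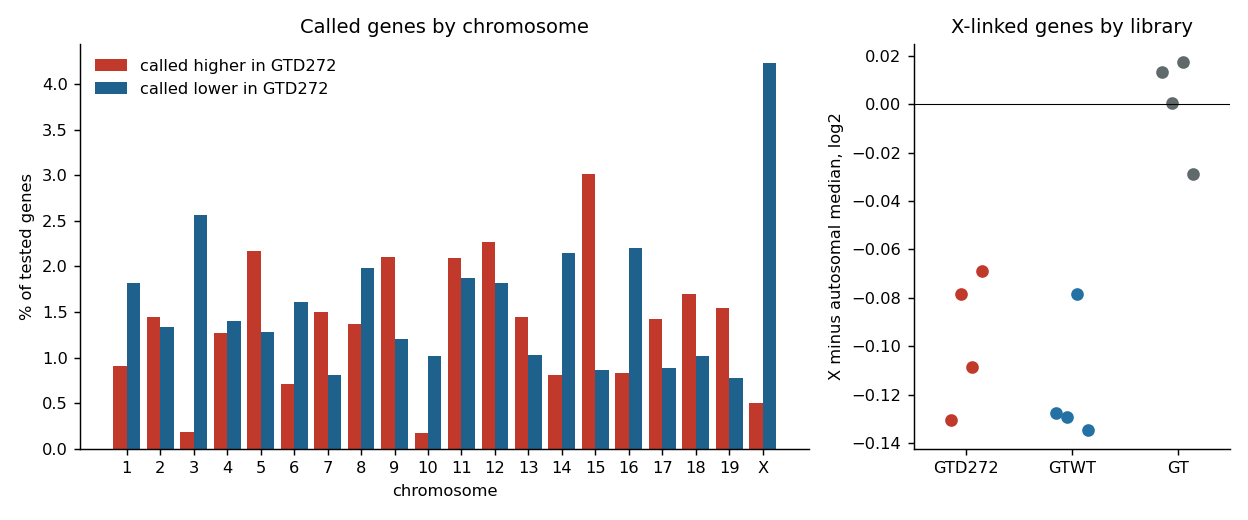
Left, share of tested genes called higher (red) or lower (blue) in GTD272 on each chromosome; right, X-linked median minus autosomal median on the log2 scale, both relative to the GT mean, in each GTD272, GTWT and GT library. The share called lower on the X was 4.23%, and all GTD272 and GTWT libraries lie below the GT libraries.

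Zfp711, a zinc finger protein (chromosome X, 112600526 to 112635070), was at 3.48, 4.32, 3.48 and 3.59 FPKM in GTD272 and at 14.3, 9.52, 8.85 and 8.75 FPKM in GT (difference -1.25, SE 0.17, adjusted p = 0.00236). Dcaf12l1 (chromosome X, 44786567 to 44790197) was at 5.21, 6.81, 6.33 and 5.56 FPKM in GTD272 and at 19.7, 14.4, 15.8 and 12.6 FPKM in GT (difference -1.24, SE 0.15, adjusted p = 0.00132). Both were in the 12 largest falls, together with Lancl3, which averaged 3.58 ± 0.824 FPKM in GTD272 and 7.14 ± 0.954 FPKM in GT (difference -0.84, adjusted p = 0.0165, lost without GT 1 at 0.0554). Hmgn5, a nucleosome-binding protein, averaged 45.7 ± 5.05 FPKM in GTD272 and 75.7 ± 6.67 FPKM in GT (difference -0.72, adjusted p = 0.00201). Zfp711, Dcaf12l1, Hmgn5, Klhl13 (-0.47) and Pgrmc1 (-0.36) were among the X-linked falls that held without any 1 library. Of the 17 X-linked falls, 16 were also called lower in GTWT against the same GT libraries, as were 146 of the 180 falls over all genes.

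The GTWT oocytes received mRNA without the mutation, so the contrast of GTWT with GTD272 asks where the injected groups differ. Against GT, 16.6% of all genes were called in GTWT, and 127 of the 165 rises and 146 of the 180 falls of GTD272 were among them in the same direction, with none called in the opposite direction. The contrasts share the GT libraries, which alone makes them move together. Between the injected groups, 2.46% of all genes were called, 0.625% higher and 1.84% lower in GTWT, and of the 345 genes called in GTD272 against GT, 28 were called there too, 12 higher and 16 lower in GTD272 than in GT. This contrast in turn shares the GTD272 libraries. In 13 of the 28 genes the GTWT level lay back toward GT or just past it, and in 15 it lay farther from GT than the GTD272 level. The count of 28 was 12 without GTD272 1 or GTD272 2, 13 without GTD272 4 and 15 without GTD272 3, GT 1 or GT 2. It was 16 without GT 3, 18 without GT 4 and 17 without GTWT 4.

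Adcy1, Tifab and Prelid1 were near GT in GTWT, and both their calls held without any 1 library. The calls of 5730507C01Rik, listed at 0 in all GTWT and GT libraries, also held, but it was tested only through its GTD272 values. They are therefore no separate support. Adcy1 was at 16.1, 14.2, 16.1 and 14.8 FPKM in GTD272, at 7.83, 5.41, 6.14 and 8.10 FPKM in GTWT and at 7.91, 8.42, 6.02 and 7.5 FPKM in GT. Only the GTD272 libraries stood apart, and the GTWT minus GTD272 difference, in which a negative value means higher in GTD272, was -1.06 (SE 0.13, adjusted p = 0.00119). Prelid1 averaged 18.2 ± 0.707 FPKM in GTD272, 29.0 ± 3.06 FPKM in GTWT and 33.6 ± 4.42 FPKM in GT (GTWT minus GTD272 0.64, adjusted p = 0.00380). Tifab averaged 2.76 ± 0.790 FPKM in GTD272, 5.55 ± 0.240 FPKM in GTWT and 5.89 ± 0.667 FPKM in GT (GTWT minus GTD272 0.83, adjusted p = 0.0129). The same pattern with calls that did not all hold was seen for Tamm41, which makes a precursor of cardiolipin in mitochondria. Tamm41 averaged 7.03 ± 0.956 FPKM in GTD272, 3.83 ± 0.818 FPKM in GTWT and 4.04 ± 1.04 FPKM in GT. Its rise against GT (0.69, adjusted p = 0.0443) was lost without GT 1, GT 2, GT 4, any GTD272 library, GTWT 1 or GTWT 4 (0.0516 to 0.118), and its difference between the injected groups (-0.74, adjusted p = 0.0341) without GTD272 1, GTD272 2, GTD272 3, GTWT 1, GTWT 3 or GTWT 4 (0.0510 to 0.0952). Gsto2 averaged 1.68 ± 0.967 FPKM in GTD272, 6.48 ± 2.33 FPKM in GTWT and 8.70 ± 4.08 FPKM in GT. Its difference between the injected groups (1.51, adjusted p = 0.0456) was lost without GTD272 1, GTD272 2, GTD272 4, GT 2, GT 3 or any GTWT library (0.0550 to 0.117).

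In the other direction, the fall of Pi4k2b, a phosphatidylinositol 4-kinase, was smaller in GTD272 than in GTWT. Pi4k2b was at 22.5, 30.1, 22.4 and 23.5 FPKM in GTD272, at 13.7, 12.5, 15.4 and 12.6 FPKM in GTWT and at 46.8, 43.8, 43.2 and 38.2 FPKM in GT. The 3 groups did not overlap, and both the GTD272 minus GT difference (-0.79, adjusted p = 0.00166) and the GTWT minus GTD272 difference (-0.81, adjusted p = 0.00131) held without any 1 library. Tomm70a, a receptor for protein import into mitochondria, averaged 30.1 ± 0.849 FPKM in GTD272, 20.3 ± 1.77 FPKM in GTWT and 37.9 ± 1.84 FPKM in GT. Oaf averaged 9.59 ± 2.04 FPKM in GTD272, 4.77 ± 0.568 FPKM in GTWT and 15 ± 2.65 FPKM in GT. The GTWT minus GTD272 calls of Tomm70a (-0.55, adjusted p = 0.00130) and Oaf (-0.86, adjusted p = 0.00744) held without any 1 library. Against GT, Tomm70a (-0.32, adjusted p = 0.0281) was lost without any GT library, GTD272 1, GTD272 3 or GTD272 4 (0.0510 to 0.0905), and Oaf (-0.60, adjusted p = 0.0428) without GT 1, GT 2, GT 3, GTD272 1, GTD272 2, GTD272 3, GTWT 1 or GTWT 2 (0.0502 to 0.120). Kit, likewise, averaged 23.9 ± 0.991 FPKM in GTD272, 32.4 ± 1.66 FPKM in GTWT and 18.4 ± 1.19 FPKM in GT (GTWT minus GTD272 0.43, adjusted p = 0.00507), a difference that held without any 1 library, while its call against GT was lost without GT 3 (0.0509). Bfsp1, Pnpla3 and Herpud1 were not called between the injected groups, with GTWT minus GTD272 of -0.40 (adjusted p = 0.0667), -0.32 (0.211) and -0.33 (0.303).

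**Figure D5:**
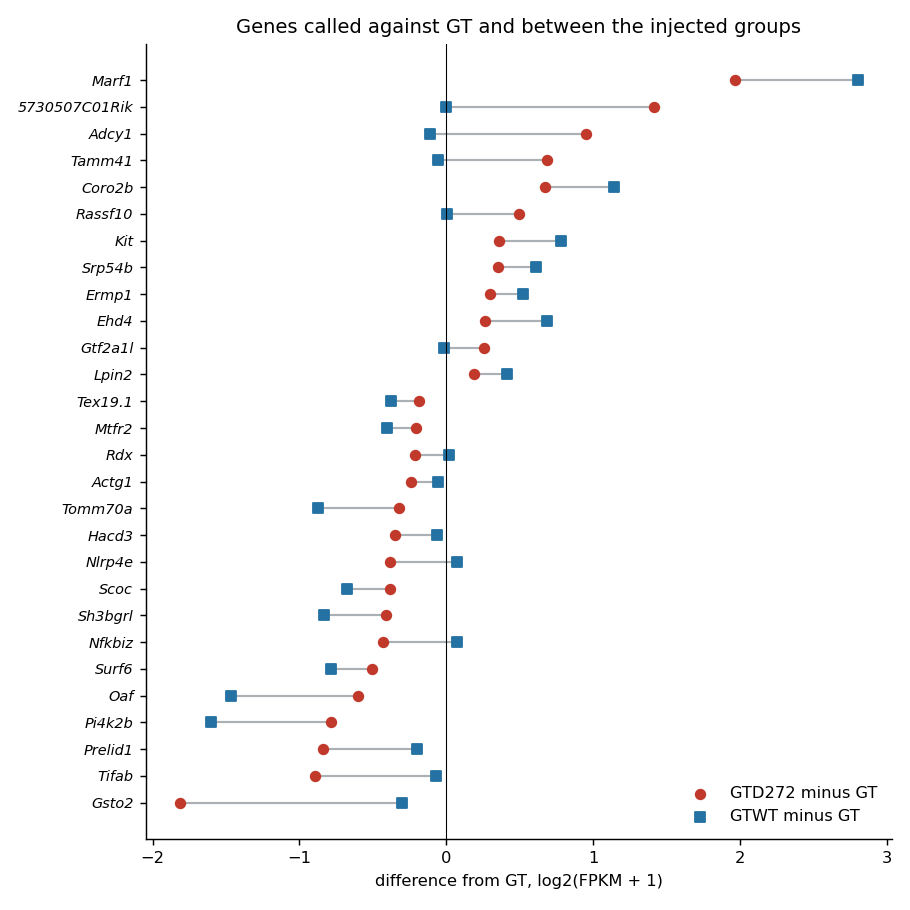
Differences from GT on the log2(FPKM + 1) scale (horizontal) in GTD272 (red circles) and GTWT (blue squares) for the 28 genes called both in GTD272 against GT and between the injected groups. In 13 genes, such as Adcy1, Tifab and Gsto2, the GTWT value lies back toward 0, and in 15, such as Pi4k2b and Kit, it lies farther out.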

How the data were processed

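RNA was sequenced in 12 libraries of 80 oocytes each, 4 per group, grouped by sample title. The NEBNext Ultra kit was used for library preparation and pairs of 150 bp were read on an Illumina HiSeq, per the labels, which also name Smart-seq2 amplification. Per the submitters' processing notes, TopHat2 2.0.13 aligned reads to mm10, and the authors computed and normalized FPKM with Cufflinks 2.2.1. The annotation and the use of strand are not given in the sources used here. The deposited table of FPKM values holds 24254 genes. Its header stands 1 column left of the values, so columns were read by number. The deposited fold changes and p-values were not used. Of the symbols, 24100 (99.4%) matched RefSeq's GRCm38.p6, from which coordinates come. A spreadsheet had turned 27 symbols into dates. A listed locus with another gene was shared by 5708 genes, among them 17 of the 88 named genes, given as uncertain.

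Tested genes reached FPKM 1 in 4 or more of the 12 libraries. They were fitted as log2(FPKM + 1) by limma 3.58.1 (R 4.3.3) using its mean-variance trend, a scale that understates differences of low genes. The 3 groups entered 1 model (residual degrees of freedom 9, prior 4.47), and a call is a Benjamini-Hochberg adjusted p under 0.05 over 11687 genes. The fit was tested on simulated data. FPKM carry no read counts, so precision rests on the 4 libraries per group.

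Named genes were Marf1, Ppp2cb, the 12 largest rises and 12 largest falls among called genes without overlap between groups, the 8 most abundant called genes, up to 4 called members of each of 33 lists (or 2 with the smallest p), and the 10 called genes that differed most between the injected groups. The members and lists were chosen with earlier results of these data known. Genes outside this rule are said to be so or belong to the X chromosome or to the 28 genes called in both contrasts, and were picked after their values were seen. Alternatives changed the pseudocount (0.1 or 0.01), the filter, the scaling, the trend, the libraries fitted, and the replicate number as a block, and left out each library in turn.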

Additional observations from a re-analysis of the deposited data

Results flagged for a closer look

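Among 175 groups of 4 libraries of the named genes, 10 held a library whose gap to the nearest other exceeded Dixon's 95% critical value, and chance alone gives about 1 in 20. The high libraries of GTD272 were replicate 3 for Eno1 (2.96 FPKM), replicate 2 for Zfp711 (4.32), Dazl (416.8) and Pi4k2b (30.1), and replicate 4 for Tuba1c (210.8). Ybx2 was low in GTD272 replicate 4 (245.4 FPKM). In GT, replicate 1 was high for Zfp711 (14.3 FPKM), replicate 3 was high for Tamm41 (5.58) and low for Gdf9 (3567), and replicate 2 was low for Haus8 (1.41).

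By limma's contrast of GTWT with GTD272, the injected groups differed for 16 of the named genes. Of these, 10 were named for that difference, so the count is partly set by the choice. Of all genes, 2.46% were called in that contrast. Values are GTWT minus GTD272 on the log2 scale, so negative ones mean higher in GTD272. Higher in GTD272 than in GTWT were 5730507C01Rik (-1.41), BC061212 (-1.31), Adcy1 (-1.06), Oaf (-0.86), Pi4k2b (-0.81), Tamm41 (-0.74), Tomm70a (-0.55), Ppp2cb (-0.54), Ndufaf1 (-0.43), Gtf2a1l (-0.27) and Tex19.1 (-0.19). Lower in GTD272 were Gsto2 (1.51), Marf1 (0.84), Tifab (0.83), Prelid1 (0.64) and Kit (0.43). Ppp2cb was at 100 ± 5.33 FPKM in GTD272, 69.4 ± 11.2 FPKM in GTWT and 105 ± 5.57 FPKM in GT (SD, n = 4 each). Marf1 was at 9.12 ± 0.806 FPKM in GTD272, 17.5 ± 5.08 FPKM in GTWT and 1.6 ± 0.242 FPKM in GT. The injected groups thus also differed in Marf1 level, which counts injected mRNA and the trapped gene's own transcript together. The Marf1 difference was lost without GTD272 2, GTD272 4 or GTWT 4 (adjusted p = 0.0505 to 0.0549). The call was also lost without single libraries for BC061212 (6 libraries, adjusted p = 0.0525 to 0.0902), Ndufaf1 (6, 0.0514 to 0.0867), Tamm41 (6, up to 0.0952), Gtf2a1l (7, 0.0535 to 0.102), Tex19.1 (8, 0.0525 to 0.102) and Gsto2 (9, up to 0.117). For BC061212 these were GTD272 1, GTD272 2, GTD272 4, GTWT 1, GTWT 2 and GTWT 3, and for Ndufaf1 GTD272 1, GTD272 2, GTD272 3, GT 4, GTWT 2 and GTWT 4. For Gtf2a1l they were GTD272 1, GTD272 2, GTD272 4, GT 4, GTWT 2, GTWT 3 and GTWT 4, and for Tex19.1 the same libraries and GT 2. The other 9 kept this call without any 1 library. What part that difference in Marf1 level has in the others was not tested.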

How the results depend on the processing

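Without a filter on low values, 102 genes rose and 107 fell in GTD272 against GT, and without the mean-variance trend, 87 and 77, with 9 of them called between the injected groups. Leaving out 1 library gave 60 to 168 rises, 50 to 207 falls and 12 to 29 genes called in both contrasts. The replicate numbers did not pair the libraries: deviations of same-numbered GTD272 and GT libraries correlated at -0.174 to 0.122 and of others at -0.165 to 0.191. With the replicate number as a block, 99 genes rose, 95 fell and 18 were called in both contrasts. Marf1 differed by 1.90 to 2.02 and Ppp2cb by -0.10 to -0.03 without 1 library, on the same side of the threshold as before. Gdf9 reversed with quantile normalization (-0.33, adjusted p = 0.554, against 0.0230 as reported; without 1 library up to 0.0697). The cause of these shifts was not tested. Of the 71 called named genes, 24 kept their call without any 1 library. Calls lost numbered 35 without the trend, 25 with the block, 23 without the filter, 12 with the 8 libraries alone, 11 with quantile normalization, 6 with a pseudocount of 0.01 and 3 with 0.1. FPKM tables give no counting error for genes near 1 FPKM.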
